A study of Mus musculus with 14 samples.

Results

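Assembloids that combined hepatic and endothelial-like cells were compared with organoids of the hepatic cells alone, in the 2 libraries labelled 3D-iHEA (iHEAs) and the 2 labelled 3D-iHA (iHLOs), across every gene whose log2(count + 1), averaged over these 4 libraries, reached 3. This gave 13453 of the 28022 genes of the count table, measured in 4 of the 14 libraries of the study. All 4 cultures contained iHepSCs, hepatic stem-like cells converted from C57BL/6J mouse embryonic fibroblasts with lentiviral *Oct4* and *Hnf4α*, which were grown as spheroids in a hydrogel of Matrigel and type I collagen and kept in the same medium. The iHEAs differed by their iECs, endothelial-like cells converted with *ETV2* from the human fibroblast line HF1 and sorted as CD144+CD31+. Because the reads were aligned to the mouse genome, RNA of the human cells could be counted only where it aligned to mouse genes, and the share of such reads was not measured here.

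Endothelial cells line blood vessels and signal to hepatocytes in the liver, both through secreted growth factors and through contact. Liver epithelium in turn holds together through tight junctions, which seal the bile canaliculi and ducts, and through desmosomes, which anchor keratin filaments. The comparison of iHEAs with iHLOs asked which genes of the hepatic culture differed when endothelial-like cells were present.

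The total count was 28838279 and 27998348 in the iHLO libraries and 28635522 and 23751088 in the iHEA libraries. At these totals, 3 counts correspond to 0.104 to 0.126 CPM, which are counts scaled to the total count of the library. The 2 iHEA libraries were less alike than the 2 iHLO libraries. The chi-square statistic per gene, which is 1 for sampling noise alone, was 11.4 between the iHEA libraries and 3.38 between the iHLO libraries. Between an iHLO and an iHEA library it was 9.58 to 11.8, so that the iHEA libraries were about as far from each other as from the iHLOs by this measure. The label of the second iHEA library carries a pair of numbers that disagree with each other, so the values of both libraries are shown for most genes described. Every library is labelled replicate 1, nothing states that the 2 libraries of a group came from separate cultures, and the p-values therefore measure only the spread between these libraries.

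In iHEAs, 45 genes were higher and 45 were lower than in iHLOs at an adjusted p-value under 0.05 (quasi-likelihood test of edgeR, Benjamini-Hochberg adjustment over all 13453 genes). In the following, called, rose and fell refer to this test on the 4 libraries unless another is named. DESeq2 called 109 higher and 87 lower genes. Together these 90 genes were 0.669% of the genes tested, or 0.334% in each direction, and 729 higher genes (5.42%) and 576 lower genes (4.28%) had an unadjusted p-value under 0.05. The median absolute log2 fold change was 0.87 among the higher and 0.56 among the lower genes, and 17 of the higher and 7 of the lower genes changed by 1 or more on the log2 scale, as did 1.9% of all genes tested. With the spread taken from all 8 culture libraries, 156 genes were higher and 140 lower (2.2%). For all 90 genes, both iHEA libraries lay on the same side of both iHLO libraries, which held for 38% of the genes tested. The called genes kept their direction in both fits that left out an iHEA library, which this position made all but certain. The number of calls rested on the iHLO pair, with 6 higher and 6 lower genes without iHLO library 1 and 3 higher and 8 lower without iHLO library 2. It rose to 529 higher and 492 lower genes without iHEA library 1 and to 417 and 389 without iHEA library 2, where the spread came from the iHLO libraries alone.

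**Figure D1:**
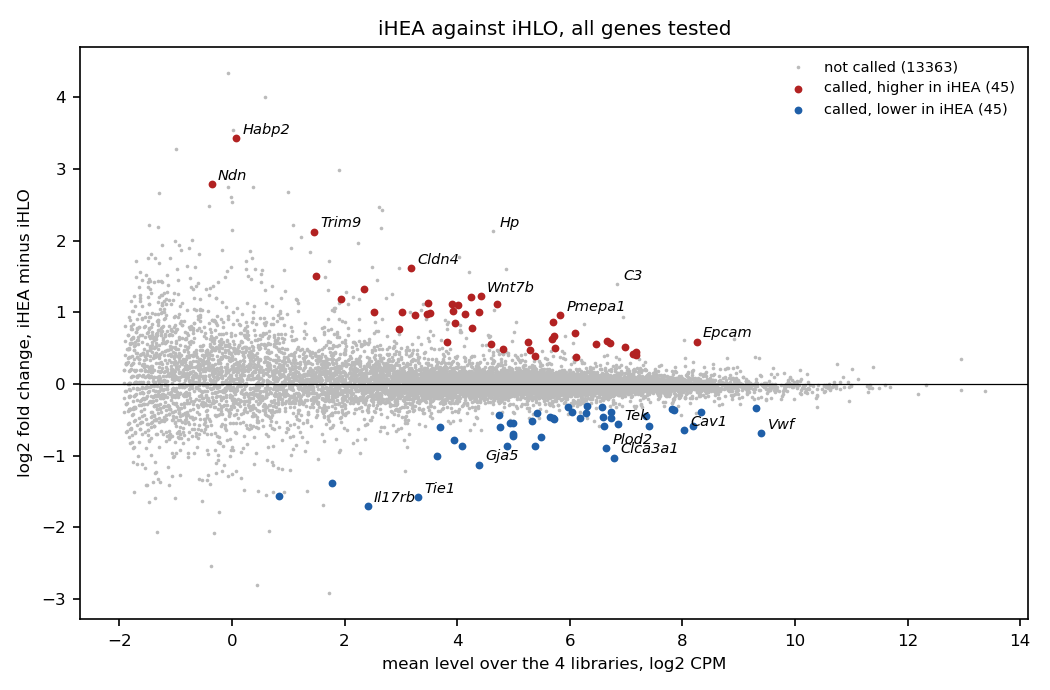
Log2 fold change of iHEA against iHLO (y axis) over the mean level of the 4 libraries in log2 CPM (x axis), 1 point per gene tested. The 45 genes called higher are in red and the 45 called lower in blue, and larger uncalled values such as those of *Hp* and *C3* are grey.

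Several genes of vascular endothelium were among the lower genes. Of 37 listed endothelial genes, 25 were tested, 0 rose and 4 fell in iHEAs. The 4 were *Tie1* and *Tek*, receptors of the angiopoietin system, *Vwf*, the clotting protein von Willebrand factor, and *Gja5*, the gap junction protein connexin 40 of arterial endothelium. In these bulk libraries, fewer cells that express a gene and less of its RNA per cell cannot be told apart.

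*Tie1* (chromosome 4 of GRCm38, 118471191 to 118490061) had 394 and 451 counts in iHLOs and 168 and 97 in iHEAs. Both iHEA libraries were below both iHLO libraries, with 14.9 ± 1.73 CPM in iHLOs against 4.98 ± 1.26 CPM in iHEAs (n = 2 per group, SD) and a log2 fold change of -1.58 (SE 0.17, adjusted p = 0.0086 from edgeR). *Gja5* (chromosome 3, 96904693 to 97077416) had 851 and 779 counts in iHLOs and 376 and 317 in iHEAs, a log2 fold change of -1.12 (SE 0.08, edgeR adjusted p = 0.00188). *Vwf* (chromosome 6, 125546774 to 125686679) had 22039 and 25206 counts in iHLOs and 15418 and 11946 in iHEAs. Its level fell from 832 ± 96.2 to 521 ± 25.1 CPM (n = 2 per group, SD), a log2 fold change of -0.69 (SE 0.08, edgeR adjusted p = 0.0101). *Tek* (chromosome 4, 94739289 to 94874976) had 3892 and 3906 counts in iHLOs and 2673 and 2252 in iHEAs, a log2 fold change of -0.55 (SE 0.05, edgeR adjusted p = 0.00446).

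The iHLOs, to which no iECs were added, held counts of all 4 genes, and their levels were from 1.47-fold (*Tek*) to 2.98-fold (*Tie1*) those of iHEAs. The bases in front of *Tie1*, *Tek* and *Gja5* are shown because all were lower in iHEAs. RefSeq starts differ from the gene spans given above, which cover all annotated transcripts. The window of *Gja5* lies within its span, at the start of a shorter transcript, and most of that of *Tie1* overlaps its span. The sequences are the 250 bases before the transcription start in RefSeq (GRCm38.p6), written 5′ to 3′ on the gene's strand, with matches to the searched motifs in capitals: AGGAAG, the core bound by ETS factors, and GGGCGG, bound by SP and KLF factors, each on either strand. *Tie1* is at chr4:118489850-118490099 on the minus strand, *Tek* at chr4:94739039-94739288 and *Gja5* at chr3:97032152-97032401, both on the plus strand.
Tie1: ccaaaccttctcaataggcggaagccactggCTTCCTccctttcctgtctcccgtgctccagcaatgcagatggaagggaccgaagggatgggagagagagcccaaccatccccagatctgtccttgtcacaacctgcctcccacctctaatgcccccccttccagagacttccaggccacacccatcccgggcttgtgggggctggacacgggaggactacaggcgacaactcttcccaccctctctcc
Tek: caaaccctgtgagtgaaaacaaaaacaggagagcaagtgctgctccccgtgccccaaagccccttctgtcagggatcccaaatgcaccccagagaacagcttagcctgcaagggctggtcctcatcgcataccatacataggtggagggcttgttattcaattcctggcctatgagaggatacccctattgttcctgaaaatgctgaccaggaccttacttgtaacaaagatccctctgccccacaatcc
Gja5: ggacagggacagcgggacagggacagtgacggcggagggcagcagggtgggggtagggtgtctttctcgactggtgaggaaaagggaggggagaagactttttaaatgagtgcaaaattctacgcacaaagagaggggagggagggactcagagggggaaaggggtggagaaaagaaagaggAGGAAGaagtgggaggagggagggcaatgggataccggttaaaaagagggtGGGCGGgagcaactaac
*Tie1* has an ETS match that starts 219 bases before the transcription start, *Gja5* has an ETS match at 68 and an SP/KLF match at 17 bases, and *Tek* has no match in this window. RefSeq windows were found for 62 of the 90 called genes. AGGAAG on either strand was in 44.2% of the 43 windows of lower genes, in 28.2% of the 39 windows of higher genes and in 28.1% of the 13191 windows of all genes tested. GGGCGG was in 46.5%, 46.2% and 56.3% of the same windows. TATAAA was in 16.3%, 2.56% and 6.84%, GGAATG, the core bound by TEAD factors, in 6.98%, 12.8% and 10.8%, and AACCNGTT, bound by grainyhead-like factors, in 2.33%, 0% and 1.55%. Windows of 1 gene can overlap, a match does not show binding, and these shares were not tested.

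Most other endothelial genes were not called, with 5 lower by DESeq2 and 6 with the spread of 8 libraries. At an unadjusted p-value under 0.05, 11 of the 25 tested genes were lower and 1 was higher, where 4.28% and 5.42% of all genes tested were. The median log2 fold change of the list was -0.18, against 0.00 for all genes tested, and it was -0.40 without iHEA library 1 and -0.22 without iHEA library 2. The summed level of the list was 1758 and 1947 CPM in iHLOs and 1413 and 1358 CPM in iHEAs. *Cdh5*, which encodes VE-cadherin (the CD144 used to sort the iECs), had 14002 and 14321 counts in iHLOs and 13154 and 10322 in iHEAs, with a log2 fold change of -0.17 that was not called (edgeR adjusted p = 0.337). *Pecam1*, which encodes CD31, had 14 and 22 counts in iHLOs and 19 and 9 in iHEAs. *Kdr*, the main VEGF receptor of endothelium, had 2 and 4 counts in iHLOs and 0 and 0 in iHEAs and was not tested. In all, 7 of the 37 listed genes, *Etv2* with 0 counts in the 4 libraries among them, had at most 3 counts in every library. The defining endothelial genes were therefore counted only in part, and in both groups.

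Some lower genes outside the list have known roles in endothelium, among other cells. They were picked among the genes that fell and were not tested as a group. *Acvrl1*, the receptor ALK1 for bone morphogenetic proteins of endothelium, had 166 and 115 counts in iHLOs and 52 and 48 in iHEAs (log2 fold change -1.37, SE 0.24, edgeR adjusted p = 0.0496). *Cav1*, the coat protein of caveolae, the small membrane pits abundant in endothelial cells, had 9147 and 8954 counts in iHLOs and 5719 and 4995 in iHEAs (log2 fold change -0.65, SE 0.05, edgeR adjusted p = 0.00224). *Cavin2*, *Jcad* and *Podxl*, which are named here after their values were seen, code for another caveola protein, a junction protein of endothelial cells and a sialomucin of vascular and epithelial surfaces. They fell by 0.48, 0.36 and 0.34 on the log2 scale, and *Cavin2* had 2511 and 2307 counts in iHLOs and 1645 and 1549 in iHEAs. *Ddah1*, which breaks down an inhibitor of nitric oxide synthesis, had 1528 and 1636 counts in iHLOs and 957 and 807 in iHEAs (log2 fold change -0.73, edgeR adjusted p = 0.00374). *Nav3*, a guidance protein of migrating cells, had 574 and 524 counts in iHLOs and 333 and 262 in iHEAs, and fell by 0.78 on the log2 scale.

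**Figure D2:**
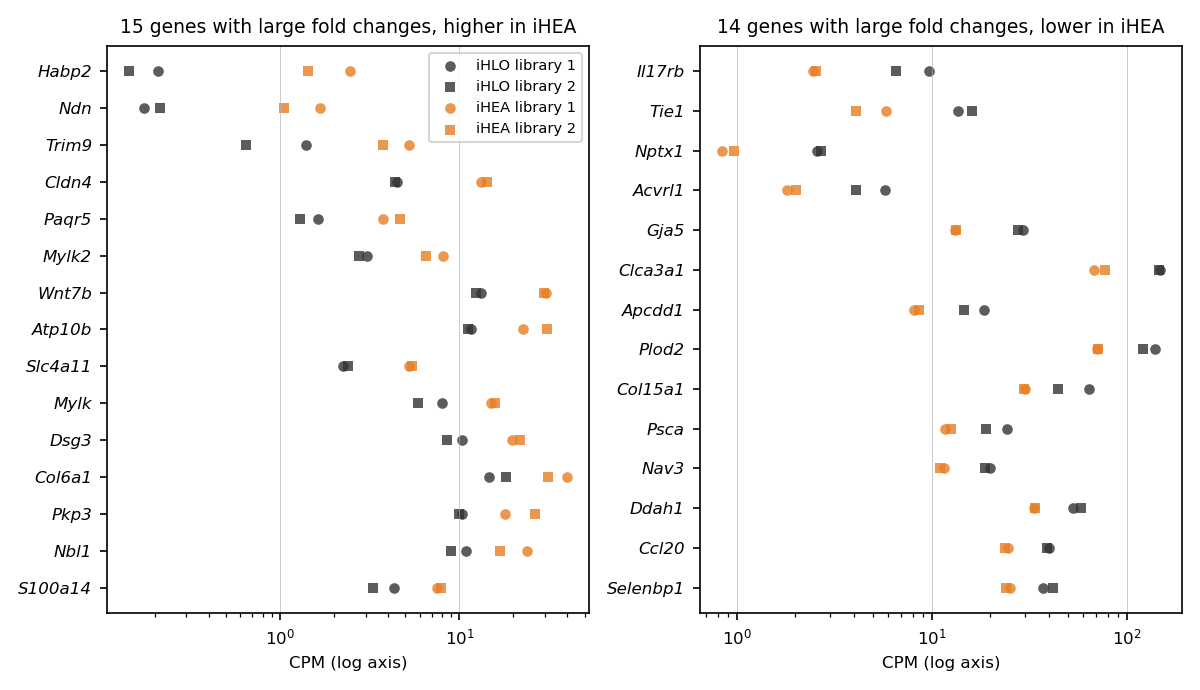
Level of the 15 genes with the largest increase (left) and of 14 of the 15 with the largest decrease (right) among called genes with at least 20 counts in each library of the higher group, in CPM on a log axis, 1 point per library. Circles are library 1 and squares library 2, iHLO in dark grey and iHEA in orange, and the genes were chosen so that the 2 colours do not overlap.

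Among the genes that were higher in iHEAs were several of epithelial junctions. Of 37 listed genes for junctions and polarity, 32 were tested, 2 rose and 0 fell. *Cldn4*, a tight junction claudin, had 129 and 122 counts in iHLOs and 376 and 337 in iHEAs. Its level rose from 4.42 ± 0.0819 to 13.7 ± 0.748 CPM (n = 2 per group, SD), a log2 fold change of 1.62 (SE 0.12, edgeR adjusted p = 0.00188). The desmosome plaque protein plakophilin 3, *Pkp3*, had 299 and 280 counts in iHLOs and 512 and 626 in iHEAs (log2 fold change 1.10, SE 0.17, edgeR adjusted p = 0.028).

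DESeq2 called 5 genes of the list higher, and with the spread of 8 libraries 6 were higher. At an unadjusted p-value under 0.05, 15 of the 32 junction genes were higher and 0 were lower, against 5.42% and 4.28% of all genes tested. The median log2 fold change of the list was 0.22, and it was 0.15 without iHEA library 1 and 0.14 without iHEA library 2. *Cdh1*, E-cadherin, had 13283 and 12873 counts in iHLOs and 14820 and 13665 in iHEAs, with a log2 fold change of 0.24 that was not called in the 4 libraries (SE 0.06, edgeR adjusted p = 0.173), but was called by DESeq2 (adjusted p = 0.0313) and with the spread of 8 libraries (edgeR adjusted p = 0.0464). *Ocln*, occludin, had a log2 fold change of 0.15 (edgeR adjusted p = 0.496), and *Cdh2*, N-cadherin, had 6.73 and 7.50 CPM in iHLOs and 12.3 and 7.96 in iHEAs, a log2 fold change of 0.51 that was not called (edgeR adjusted p = 0.416).

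Single genes outside the junction list, which were not tested as a group, are known from epithelia. *Epcam*, the epithelial cell adhesion molecule of bile ducts and hepatic progenitors, had 6905 and 6900 counts in iHLOs and 9732 and 9469 in iHEAs. Its level rose from 243 ± 4.95 to 369 ± 41.6 CPM (n = 2 per group, SD), a log2 fold change of 0.59 (SE 0.08, edgeR adjusted p = 0.0136). *Dsg3*, a desmosomal cadherin, had 300 and 239 counts in iHLOs and 561 and 518 in iHEAs (log2 fold change 1.12, SE 0.12, edgeR adjusted p = 0.00825). *Lamb3*, the beta chain of a laminin of epithelial basement membranes, had 1656 and 1269 counts in iHLOs and 2350 and 2066 in iHEAs (log2 fold change 0.71, SE 0.10, edgeR adjusted p = 0.0198). *Lama3*, the alpha chain of this laminin, was not called (log2 fold change 0.89, edgeR adjusted p = 0.215). *S100a14*, a calcium-binding protein of epithelia, had 124 and 92 counts in iHLOs and 215 and 188 in iHEAs. *Gpa33* and *Slc44a4*, a surface antigen and a choline transporter of intestinal epithelium, rose by 0.57 and 0.56, and *Alcam*, an adhesion molecule, by 0.51. The protease inhibitors *Spint1* and *Serpinb5* and the basal keratin *Krt14*, named here after their values were seen, rose by 0.87, 1.01 and 0.45 on the log2 scale. *Spint1* had 1031 and 1041 counts in iHLOs and 1719 and 1767 in iHEAs.

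The upstream sequences of *Cldn4* (chr5:134946935-134947184, minus strand) and *Epcam* (chr17:87635729-87635978, plus strand) are shown in the same form as those of the vascular genes, as examples of genes that rose.
Cldn4: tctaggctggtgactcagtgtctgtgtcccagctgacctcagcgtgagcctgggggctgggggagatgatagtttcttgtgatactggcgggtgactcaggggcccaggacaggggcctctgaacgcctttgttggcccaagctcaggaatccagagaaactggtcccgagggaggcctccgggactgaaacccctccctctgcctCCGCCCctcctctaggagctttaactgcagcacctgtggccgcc
Epcam: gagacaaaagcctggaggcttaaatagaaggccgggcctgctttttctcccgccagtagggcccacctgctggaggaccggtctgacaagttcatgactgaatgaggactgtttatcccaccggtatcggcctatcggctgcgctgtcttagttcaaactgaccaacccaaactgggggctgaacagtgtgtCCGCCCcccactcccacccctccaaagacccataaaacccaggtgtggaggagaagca
Each has 1 SP/KLF match, 44 bases before the start in *Cldn4* and 58 in *Epcam*, and no match to the other motifs.

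Of 26 cholangiocyte genes, 22 were tested, and 2 rose (*Epcam* and *Cldn4*, of which the second is also in the junction list) and 0 fell. Before adjustment 9 were higher and 2 lower, against 5.42% and 4.28% of all genes tested, and DESeq2 called 6 higher. *Krt7* and *Krt19*, the duct keratins, both had a log2 fold change of 0.23, with an adjusted p of 0.177 and 0.156 by edgeR and of 0.0388 and 0.0165 by DESeq2. *Muc1*, a surface mucin, had 2696 and 2086 counts in iHLOs and 3722 and 4617 in iHEAs (log2 fold change 0.94, edgeR adjusted p = 0.0573). *Sox9*, the duct and progenitor transcription factor, had 31 and 34 counts in iHLOs and 163 and 60 in iHEAs, a log2 fold change of 1.84 with an adjusted p of 0.0932 by edgeR and of 0.00462 by DESeq2. The median of the list was 0.08, and it was 0.12 without iHEA library 1 and 0.19 without iHEA library 2.

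Signalling genes were called in both directions. *Wnt7b*, a Wnt ligand of epithelia, had 379 and 345 counts in iHLOs and 871 and 704 in iHEAs, and rose from 12.7 ± 0.58 to 30.0 ± 0.549 CPM (n = 2 per group, SD). This was a log2 fold change of 1.23 (SE 0.08, edgeR adjusted p = 0.00144), the smallest adjusted p-value of the comparison together with that of *Clca3a1*. *Wnt11*, a ligand of the non-canonical pathway, had 988 and 866 counts in iHLOs and 626 and 513 in iHEAs (log2 fold change -0.59, SE 0.08, edgeR adjusted p = 0.0179). These were the only calls among 19 tested genes of the Wnt list, although *Apcdd1*, a Wnt inhibitor outside the list, fell by 1.00 on the log2 scale (538 and 411 counts in iHLOs, 233 and 205 in iHEAs).

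*Pmepa1*, a target and inhibitor of TGF-beta signalling, had 1196 and 996 counts in iHLOs and 2218 and 1748 in iHEAs (log2 fold change 0.96, SE 0.08, edgeR adjusted p = 0.00211). *Nbl1*, a secreted antagonist of bone morphogenetic proteins, had 10.9 and 9.04 CPM in iHLOs and 23.9 and 16.8 CPM in iHEAs, and rose by 1.02 on the log2 scale. Of 28 tested genes of the TGF-beta list, which holds neither of these, 0 rose and 1 fell. Before adjustment 4 were higher and 6 lower, against 5.42% and 4.28% of all genes, which also is the background of the counts before adjustment in the lists that follow. In the Notch list 1 of 14 tested genes was called, *Dtx4*, a regulator of Notch, which rose by 0.59. Among 20 YAP and TEAD targets and 35 growth factors and receptors tested, edgeR called 0 genes, DESeq2 called 1 in each list (*Myof* and *Erbb3*, both higher), and before adjustment 2 and 6 genes were higher and 4 and 3 lower.

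Among matrix and adhesion genes, *Col6a1*, a chain of collagen VI, had 422 and 509 counts in iHLOs and 1142 and 743 in iHEAs (log2 fold change 1.11, SE 0.14, edgeR adjusted p = 0.0127). By edgeR it was the only call among 26 tested fibroblast and mesenchymal genes, where DESeq2 called 3 higher and 7 were higher and 4 lower before adjustment. The summed level of this list was 1355 and 1235 CPM in iHLOs and 1593 and 1123 CPM in iHEAs, and the part of fibroblast-like RNA in the result was not tested. *Col15a1*, a collagen of vascular basement membranes, had 1840 and 1240 counts in iHLOs and 858 and 708 in iHEAs (log2 fold change -0.87, SE 0.15, edgeR adjusted p = 0.0463). *Plod2*, which hydroxylates collagen lysines before they are cross-linked, had 4010 and 3413 counts in iHLOs and 2008 and 1697 in iHEAs (log2 fold change -0.89, SE 0.07, edgeR adjusted p = 0.00211). *Itgb7*, an integrin beta chain, had 403 and 392 counts in iHLOs and 734 and 545 in iHEAs, and rose by 0.79. It was the only one of 14 tested integrins called by edgeR, DESeq2 called 2, and 6 were higher and 1 lower before adjustment. *Itgav*, *Itga5* and *Itgb1*, the integrin genes of the qRT-PCR panels, had log2 fold changes of 0.01, 0.04 and 0.03. *Adamts1*, a protease that cleaves matrix proteoglycans, fell by 0.54. The myosin light chain kinases *Mylk* and *Mylk2* rose by 1.13 and 1.33. Of 25 tested genes of basement membrane and matrix, 1 rose (*Lamb3*) and 1 fell (*Col15a1*), and 5 were higher and 6 lower before adjustment. Of 19 tested matrix proteases and inhibitors, 1 rose (*Habp2*) and 2 fell (*Adamts1* among them), and 7 were higher and 3 lower before adjustment.

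A few products of the gastric mucosa were among the lower genes, while their list as a whole had no single direction. In the list of gastric and intestinal genes, 27 of 30 were tested, 0 rose and 3 fell. Before adjustment 5 were higher and 4 lower, 13 log2 fold changes were positive and 14 negative, and the groups did not overlap for 10 higher and 4 lower genes, as for 2945 and 2173 of the 13453 genes tested. *Gkn1* and *Gkn2*, the gastrokines of the gastric surface, had 5893 and 5694 and 10064 and 9791 counts in iHLOs, against 4102 and 3069 and 7300 and 5095 in iHEAs. They fell by 0.59 and 0.58 on the log2 scale. *Psca*, a surface antigen of gastric and bladder epithelium, had 703 and 534 counts in iHLOs and 334 and 297 in iHEAs (log2 fold change -0.86, SE 0.13, edgeR adjusted p = 0.0253). The intestinal transcription factor *Cdx2* had a log2 fold change of 0.24 and the list as a whole had a median of -0.01. *Clca3a1*, a secreted protein of the calcium-activated chloride channel regulator family, had 4279 and 4089 counts in iHLOs and 1958 and 1839 in iHEAs (log2 fold change -1.03, SE 0.07, edgeR adjusted p = 0.00144). It has close relatives in its gene cluster, and how reads that fit several genes were counted is not stated.

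Among cytokine genes, *Ccl20*, a chemokine of mucosal epithelia, had 1157 and 1098 counts in iHLOs and 702 and 563 in iHEAs (log2 fold change -0.73, SE 0.07, edgeR adjusted p = 0.00438) and was the only one of 29 tested chemokine, interleukin and NF-kB genes called by edgeR. DESeq2 called 1 higher and 1 lower. *Il17rb*, a receptor for interleukins 17B and 25, had the largest decrease of all called genes, with 279 and 185 counts in iHLOs and 71 and 61 in iHEAs (log2 fold change -1.70, SE 0.22, edgeR adjusted p = 0.0146). Of 44 tested genes for the interferon response and antigen presentation, 0 were called by edgeR or DESeq2, 0 were higher and 13 were lower at an unadjusted p-value under 0.05 (5.42% and 4.28% over all genes tested), and the median log2 fold change was -0.09.

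Of 33 tested genes of the hypoxia response and glycolysis, 29 had a negative log2 fold change and 4 a positive one. Of these, 1 passed the test, the hypoxia-induced prolyl hydroxylase *Egln3*, with 3575 and 3043 counts in iHLOs and 2320 and 1789 in iHEAs (log2 fold change -0.58, SE 0.08, edgeR adjusted p = 0.0152). At an unadjusted p-value under 0.05, 15 genes of the list were lower and 0 higher, against 4.28% and 5.42% of all genes tested. DESeq2 called 3 of them lower, and with the spread of 8 libraries 4 were lower. The median log2 fold change was -0.16, with -0.26 without iHEA library 1 and -0.08 without iHEA library 2. The summed level of the list was 10414 and 10076 CPM in iHLOs and 9694 and 8541 CPM in iHEAs.

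**Figure D3:**
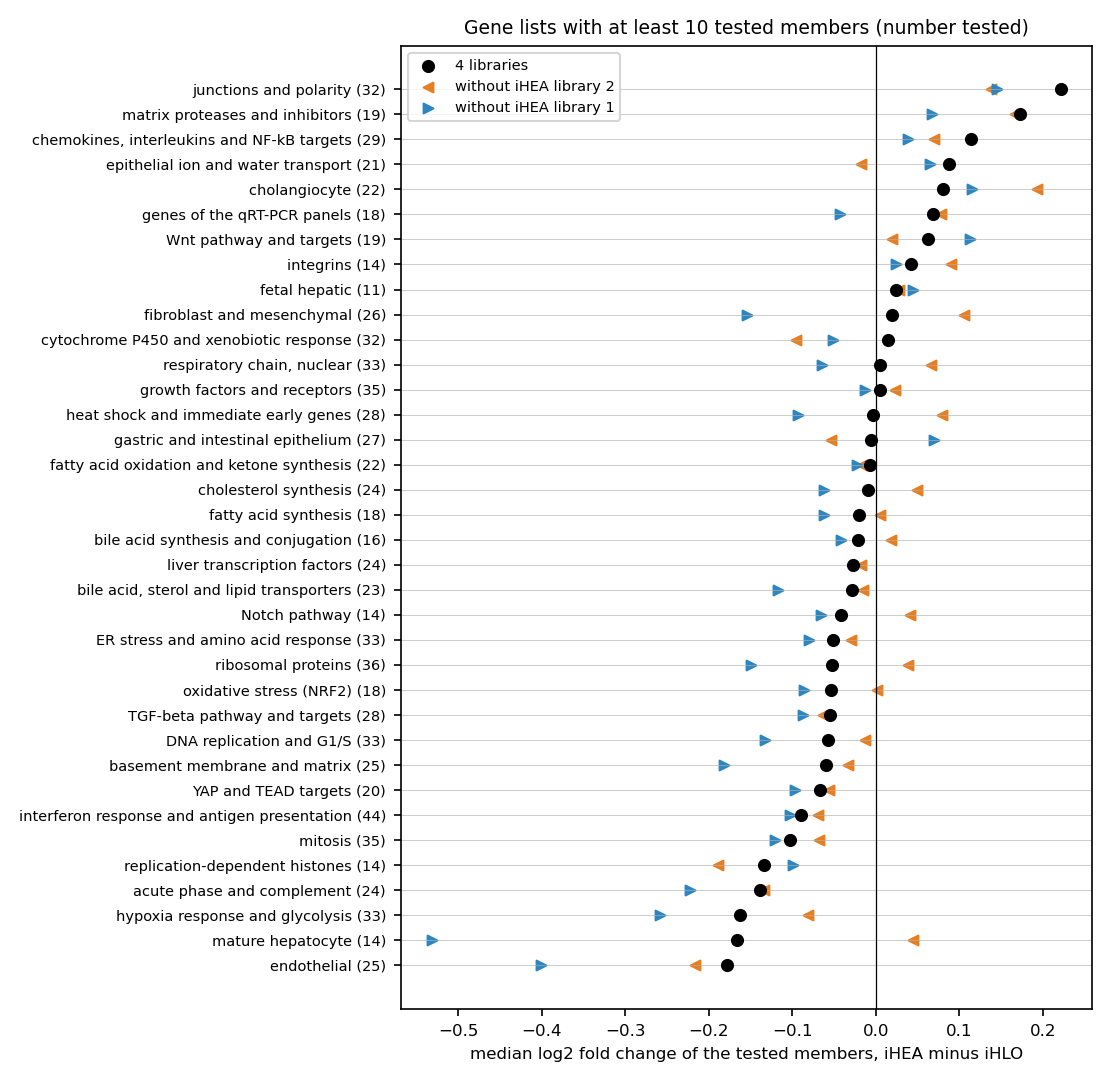
Median log2 fold change of the tested members of each gene list with at least 10 tested members (x axis), for the 4 libraries (black) and without iHEA library 2 (orange) or 1 (blue), with the number of tested members in parentheses. The junction list has the highest median (0.22) and the endothelial list the lowest (-0.18), and the mature hepatocyte list lies at -0.53 without library 1 and at 0.04 without library 2.

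Few genes of hepatocyte functions were called. Of 44 mature hepatocyte genes only 14 passed the filter, 0 rose and 0 fell, and 16 of the 43 found in the table had at most 3 counts in every library. *Alb*, albumin, had 3 and 16 counts in iHLOs and 20 and 4 in iHEAs. *Ttr*, transthyretin, had 2924 and 2477 counts in iHLOs and 2871 and 2252 in iHEAs (log2 fold change 0.03, edgeR adjusted p = 0.967). By edgeR, 0 genes were called among the tested genes for bile acid synthesis (16), bile acid, sterol and lipid transport (23), cholesterol synthesis (24), fatty acid synthesis (18), fatty acid oxidation and ketone synthesis (22), or acute phase and complement (24). The medians of these lists were between -0.14 and -0.01, and at an unadjusted p-value under 0.05 each list held 0 to 3 higher and 1 to 7 lower genes, with 7 of 24 lower in the acute phase and complement list and 4 of 16 in the bile acid synthesis list. DESeq2 called *Slc10a2*, the ileal type bile acid transporter, higher, and *Apoa1*, an apolipoprotein that is also in the mature hepatocyte list, and *Mt1*, a metallothionein, lower. Among 32 tested cytochrome P450 and xenobiotic response genes, the glutathione transferases *Gsta3* and *Gstm1* fell by 0.47 and 0.40 on the log2 scale. Before adjustment 2 genes of this list were higher and 9 lower, and DESeq2 called 3 lower. *Gsta3* had 3345 and 3619 counts in iHLOs and 2477 and 2180 in iHEAs, and both genes belong to families of similar sequence.

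Of the transcription factors that mark liver, 24 of 29 were tested and 1 rose, *Onecut2*, a regulator of early liver and bile duct formation. It had 1179 and 1109 counts in iHLOs and 1625 and 1733 in iHEAs (log2 fold change 0.67, SE 0.10, edgeR adjusted p = 0.0315), and by edgeR it was also the only call among 11 tested fetal hepatic genes. DESeq2 called 2 genes higher in each of these lists. *Hnf4a*, which is also a conversion factor, had 5382 and 5591 counts in iHLOs and 5886 and 5137 in iHEAs (log2 fold change 0.12, edgeR adjusted p = 0.61). *Pou5f1*, the gene of Oct4, had 11 and 15 counts in iHLOs and 27 and 15 in iHEAs, and *Nanog* and *Sox2* had 0 in all 4 libraries. Reads of the lentiviral copies of *Oct4* and *Hnf4α* cannot be told apart from those of the mouse genes in these counts.

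Genes picked by their level in tissue had shares of called genes above the 0.669% of all genes tested, a difference that was not tested. Of the genes at 10 CPM or more in both adult liver libraries and at least 8-fold above fibroblasts and fetal liver, 240 were tested, 2 were called higher (*Myh14* among them) and 2 lower (*Gsta3* and *Ldhd*), which is 1.67% of them, and their median log2 fold change was -0.03. Fetal liver genes chosen in the same way had 2 higher (*Adgrg1* and *Smox*) and 2 lower (*Podxl* and *Vwf*) of 193 (2.07%), with a median of 0.01. For fibroblast genes the counts were 1 higher (*Nbl1*) and 3 lower (*Pax8* and *Synpo* among them) of 302 (1.32%), with a median of 0.01.

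Of the 26 genes of the qRT-PCR panels, 18 were tested, of which 1 rose and 2 fell (*Tie1* and *Vwf*). The paper gives its endothelial, fibronectin and *HGF* panels with human gene symbols, relative to the human line HF1. The counts here are those of the mouse genes, so the 2 measures are not alike. The gene that rose was *Habp2*, a hyaluronan-binding plasma protease of hepatocytes, and it had the largest increase of all called genes. It had 6 and 4 counts in iHLOs and 70 and 34 in iHEAs, with 0.175 ± 0.0461 CPM against 1.94 ± 0.716 CPM (n = 2 per group, SD) and a log2 fold change of 3.43 (SE 0.46, edgeR adjusted p = 0.0163). For comparison, the adult liver libraries had 227.5 and 233.1 CPM of *Habp2*. After *Habp2*, the largest called increases were those of 2 genes with neural roles. *Ndn*, the growth suppressor necdin, had 5 and 6 counts in iHLOs and 48 and 25 in iHEAs (log2 fold change 2.79, SE 0.44, edgeR adjusted p = 0.0363). *Trim9*, a ubiquitin ligase of neurons, had 40 and 18 counts in iHLOs and 149 and 89 in iHEAs (log2 fold change 2.13, SE 0.35, edgeR adjusted p = 0.0423), a call that was lost with RLE scaling and with a filter of 5. *Habp2* and *Ndn* were the 2 called genes that would not have reached the filter by their iHLO libraries alone and were tested because of their level in iHEAs.

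Several other genes of the panels had few counts or differed between the iHEA libraries. The bile acid CoA N-acyltransferase family gene *Acnat2* had 1 and 2 counts in iHLOs and 54 and 3 in iHEAs and was not tested. The organic anion transporter gene *Slco1a5* had 8 and 1 counts in iHLOs and 103 and 3 in iHEAs, with a log2 fold change of 3.55 that was not called (SE 1.24, edgeR adjusted p = 0.335). *Serpina1b*, alpha-1 antitrypsin, had 20 counts in iHEA library 1 and 0 in the other 3 libraries, and *Akr1d1*, a bile acid reductase, had 0 in both iHLO libraries and 3 and 2 in iHEAs. *Fn1*, fibronectin, had 7153 and 4573 counts in iHLOs and 13020 and 4280 in iHEAs, so that only iHEA library 1 was above the iHLOs.

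A limited set of genes differed between the iHEA libraries in this way. With genes of at least 100 counts on average, iHEA library 2 was below library 1 by more than 1 on the log2 scale for 37 genes and above it for 6, of 10666. In iHLOs 8 and 7 genes differed as much. The SD of the log2 difference over these genes was 0.204 in iHEAs and 0.128 in iHLOs. *Hp*, haptoglobin, had 249 and 282 counts in iHLOs and 2063 and 223 in iHEAs. *Tat*, the tyrosine aminotransferase of mature hepatocytes, had 43 and 71 counts in iHLOs and 538 and 62 in iHEAs, and *C3*, the central complement component, had 2045 and 1564 in iHLOs and 7868 and 1393 in iHEAs. For these 3 genes, iHEA library 1 alone was high and library 2 was close to the iHLOs.

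The complement protease *C1s1* had 93 and 37 counts in iHLOs and 538 and 39 in iHEAs, and the retinol receptor *Stra6* had 30 and 18 in iHLOs and 352 and 24 in iHEAs. *Aebp1* and *Il1r1*, genes expressed in fibroblasts, had 1326 and 423 counts in iHEA library 1 and 219 and 52 in library 2. *Serpine2*, a protease inhibitor, was high in library 1 with 477 counts and had 96 in library 2, against 40 and 66 in iHLOs. *Enpep*, an aminopeptidase, and *2900026A02Rik* instead stood apart through library 2, where they had 20 and 29 counts against 185 and 220 in library 1.

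The log2 fold changes of *Hp*, *Tat*, *C3*, *C1s1* and *Stra6* were 2.13, 2.42, 1.39, 2.18 and 2.99 with both iHEA libraries, 2.94, 3.22, 2.11, 3.03 and 3.85 with iHEA library 1 alone, and -0.01, 0.36, -0.13, -0.49 and 0.24 with library 2 alone. None of the 37 genes was called in the comparison with both libraries, and neither was any of the 6. They were picked by the difference between the iHEA libraries, which is part of the spread in that test, so calls were unlikely from the start. Of the 37, 6 were adult liver genes and 4 fibroblast genes by the tissue rule given above, which held for 240 and 302 of the 13453 genes tested. The share among the 10666 genes from which the 37 were drawn was not computed. Of the 8 genes lower in iHLO library 2, 1 was an adult liver gene and 2 were fibroblast genes. Of the 6 genes higher in iHEA library 2, 1 was an adult liver gene. Among the 6 genes higher in library 2 were *Wif1*, a secreted Wnt inhibitor, with 97 and 338 counts in iHEAs and 52 and 126 in iHLOs, the goblet cell factor *Spdef* (102 and 190 against 103 and 109), the mucosal protease *Mmp7* (1431 and 2617 against 1568 and 1456), *Scgb1a1* and *Mir703*. *Wif1* differed between the iHLO libraries as well, by 1.29 on the log2 scale (library 2 minus library 1). Across these genes the difference between the iHEA libraries had a Pearson's r of -0.28 with the GC content of the transcript and of 0.14 with its log2 length, against -0.08 and -0.06 in iHLOs, over 10666 genes, which are not independent replicates. Correlations with GC content of this size were also found between the paired libraries of 2D-iHE (-0.32), 2D-iH (0.28) and fibroblasts (0.25).

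**Figure D4:**
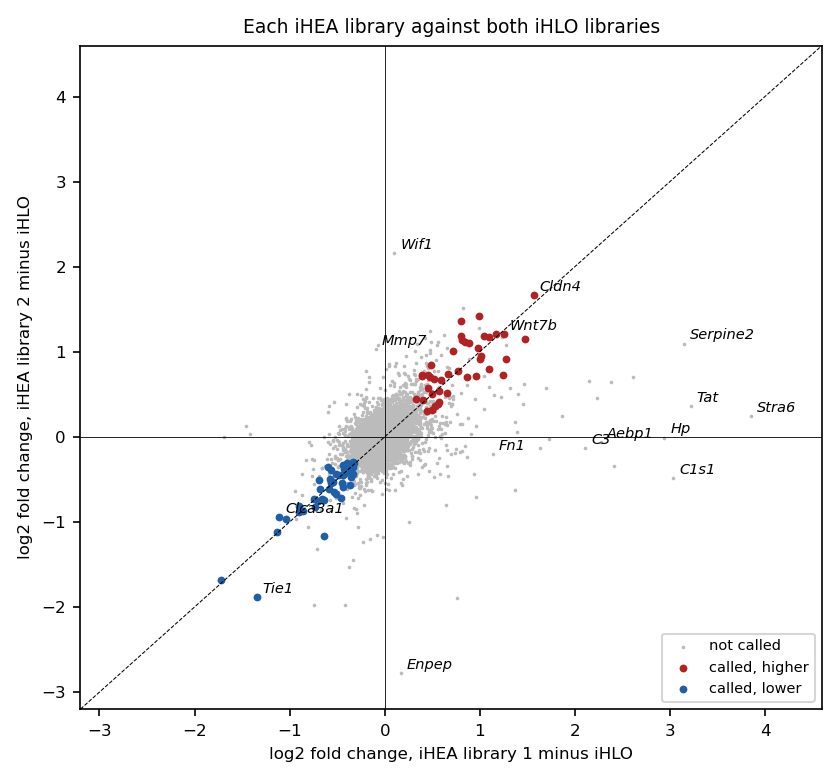
Log2 fold change of iHEA library 1 (x axis) and of iHEA library 2 (y axis) against both iHLO libraries, for genes with at least 100 counts on average, with genes called higher in red and lower in blue. Called genes follow the dashed line of equal change, which their selection by a small spread between libraries favours. *Hp*, *Tat*, *C3* and *C1s1* lie far to the right at a y value between -0.49 and 0.36.

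The same co-culture was sequenced in 2D, in libraries that are not part of the 3D comparison (2D-iHE against 2D-iH). There, 1096 of 13409 genes were called (8.17%). Of the 90 genes called in 3D, 29 were called in 2D in the same direction and 4 in the opposite direction. Called there or not, 30 of the 44 higher and 26 of the 45 lower genes that were tested in 2D had the same sign in 2D, and 14 and 19 had the opposite sign. Across 13115 genes, the 3D and 2D log2 fold changes had a Pearson's r of 0.12, and genes are not independent replicates. The 29 were 32.2% of the 3D calls and 2.65% of the 2D calls. Among vascular genes, *Vwf* had 30.6 and 28.7 CPM in 2D-iHs and 17.2 and 17.4 CPM in 2D-iHEs, a log2 fold change of -0.81 (edgeR adjusted p = 0.000208) beside -0.69 in 3D. *Tek* and *Tie1* fell by 0.99 and 1.32 in 2D, both from levels below 3 CPM. Of the higher genes, *Wnt7b* rose by 0.82, *Pmepa1* by 1.29, *Col6a1* by 0.86, *Lamb3* by 0.63 and *Alcam* by 0.67 in 2D.

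The difference between the 3D and the 2D effect was tested in the 8 culture libraries. The 90 genes were selected by their 3D effect, which is part of this difference, and this favours calls among them. Of 13409 genes, 421 (3.14%) were called, 35 of the 90 among them. This count ranged from 129 without 2D-iHE library 1 to 963 without iHEA library 1. *Clca3a1* fell in 3D and rose in 2D, with 45.7 and 43.9 CPM in 2D-iHs and 70.2 and 73.1 CPM in 2D-iHEs (difference of the log2 effects -1.69, edgeR adjusted p = 7.53e-07). *Plod2* had log2 fold changes of -0.89 in 3D and 0.12 in 2D (difference -1.02, edgeR adjusted p = 0.000112), and *Cav1* of -0.65 and -0.11 (difference -0.54, edgeR adjusted p = 0.00147). *Epcam* had 0.59 in 3D and -0.24 in 2D (difference 0.82, edgeR adjusted p = 0.0047). *Gja5* had 2 and 0 counts without and 1 and 0 with iECs in 2D. For *Vwf*, *Tek*, *Tie1* and *Gja5* the difference was not called, and the adjusted p-values were between 0.292 and 0.969.

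**Figure D5:**
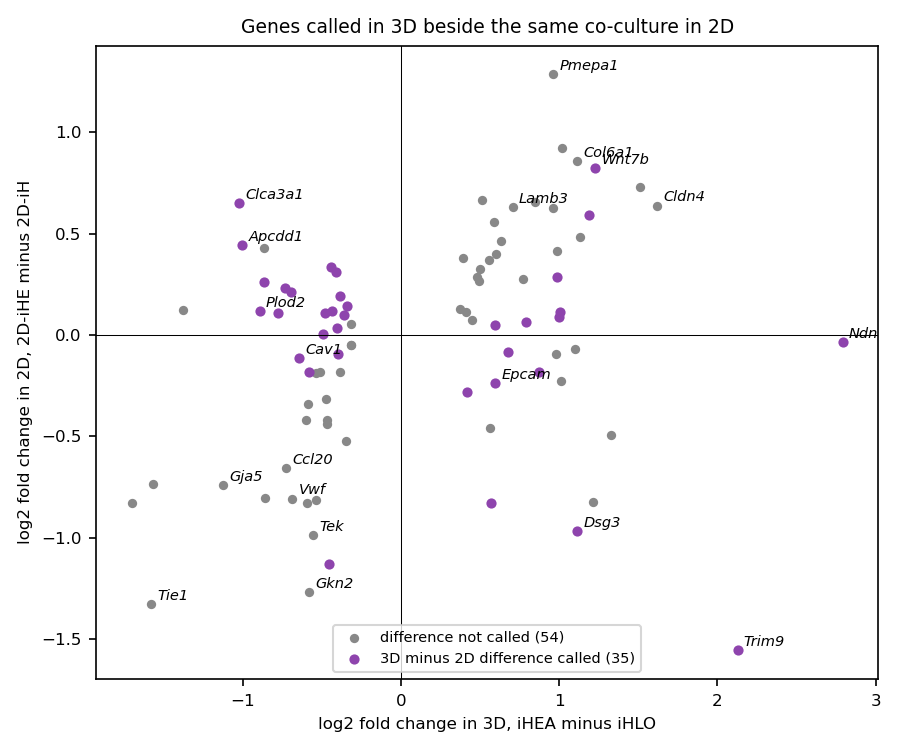
Log2 fold change of co-culture in 3D (x axis, iHEA minus iHLO) and in 2D (y axis, 2D-iHE minus 2D-iH) for the 89 genes called in 3D and also tested in 2D, with the 35 genes whose 3D minus 2D difference was called in purple. *Vwf*, *Tek* and *Tie1* lie below 0 on both axes, and *Clca3a1* and *Trim9* (3 to 12 counts in 2D) have opposite signs.

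In the lists not yet described, which cover cell division, stress responses, ion transport, respiration, ribosomes, histones, long noncoding RNAs and blood cells, edgeR called 0 genes, and DESeq2 called *Ano1*, a chloride channel, among 21 genes of epithelial ion and water transport and *Neat1*, a nuclear RNA, among 5 tested long noncoding RNAs, both higher. At an unadjusted p-value under 0.05, each of these lists held 0 to 4 higher and 0 to 4 lower genes. Among 35 mitosis genes and 33 genes of DNA replication, 28 and 27 had a negative log2 fold change, with medians of -0.10 and -0.06. The medians were -0.05 for 33 genes of ER stress, -0.05 for 18 NRF2 targets, 0.09 for the ion and water transport genes and -0.13 for 14 histone genes, and they were within 0.01 of 0 for 28 heat shock and immediate early genes and 33 nuclear genes of the respiratory chain. Without iHEA library 1 and without library 2 the medians were -0.09 and 0.08 for heat shock and -0.07 and 0.07 for the respiratory chain. In the same order they were 0.06 and -0.02 for ion and water transport and -0.13 and -0.01 for DNA replication. For ER stress they were -0.08 and -0.03, and for NRF2 targets -0.09 and 0.001. Of 36 ribosomal protein genes, 35 had a negative value (median -0.05), but the median was 0.04 without iHEA library 2. Only 3 of 20 macrophage and blood genes were tested, and 14 had at most 3 counts in every library.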

How the data were processed

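RNA sequencing libraries of 7 conditions were aligned by the authors to the mouse genome GRCm38 (mm10) with HISAT2 after trimming with Trimmomatic 0.36. The deposited values are whole-number counts of reads per gene from HTSeq, not normalised, and Cufflinks is also named in the submitters' processing notes. Strand and multiply aligned reads are not described in the sources used here.

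Groups followed the labels. Library 2 of iHEA was assigned to its group only. Counts of the 2 iHEA and 2 iHLO libraries were compared with the quasi-likelihood test of edgeR 4.0.16 in R 4.3.3 after TMM scaling, without covariates, on genes with a mean log2(count + 1) of 3 or more, and p-values were adjusted by the Benjamini-Hochberg method. The test of 3D against 2D effects used 8 libraries. Alternatives included DESeq2 1.42.0, other scalings, filters and libraries left out. Scripts were tested on simulated data. CPM were computed from unscaled totals, and intervals and floors cover counting error only.

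The genes and lists were chosen with earlier results of these data known. Named genes were the 15 largest called changes in each direction with at least 20 counts, the 8 most abundant called genes in each direction with an absolute log2 fold change of 0.5 or more, the qRT-PCR panels and conversion factors, up to 6 called members of each list or else the 2 tested members of largest change, and the 10 genes of largest difference between the iHEA libraries in each direction. Other genes were named after their values were seen. Promoters came from RefSeq and positions from the GENCODE annotation of the same build. The 15 mitochondrially encoded genes were not analysed here, and a few genes are not reported here.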

Additional observations from a re-analysis of the deposited data

Results flagged for a closer look

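Co-culture effects that differed between 3D and 2D were found for 21 of the genes named here by the test of the difference itself (edgeR, 8 libraries, adjusted over all genes tested). The value given is the log2 fold change of iHEA against iHLO minus that of 2D-iHE against 2D-iH. Genes named for their call in 3D were thus selected by a part of this value. The difference was negative for *Clca3a1* (-1.69, adjusted p = 7.53e-07), *Apcdd1* (-1.46), *Plod2* (-1.02), *Ddah1* (-0.98), *Selenbp1* (-0.92), *Nav3* (-0.90), *Cav1* (-0.54), *Egln3* (-0.41) and *Gstm1* (-0.31). It was positive for *Wnt7b* (0.39), *Slc4a11* (0.58), *Itgb7* (0.72), *Onecut2* (0.75), *Epcam* (0.82), *Gpa33* (1.38), *Dsg3* (2.07), *Ndn* (2.82) and *Trim9* (3.67).

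Among genes that were not called in 3D alone, the difference was called for *Hnf4a* (0.40), *Ocln* (0.45) and *F3*, the tissue factor of the clotting cascade (0.61). Their log2 fold changes were 0.12, 0.15 and 0.50 in 3D and -0.29, -0.31 and -0.13 in 2D, where those of *Hnf4a* and *Ocln* were called. The adjusted p-values were between 7.53e-07 and 0.0408. Each group had 2 libraries, and what sets the 3D and 2D effects apart was not tested.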

How the results depend on the processing

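Of 51 named genes that were called, 0 changed direction under any alternative run. In each, both iHEA libraries lay on the same side of both iHLO libraries, which made a change of direction unlikely. The counts, 45 higher and 45 lower, were 276 and 195 without a filter, 156 and 140 with 8 and 166 and 134 with all 14 libraries, 109 and 87 by DESeq2, 17 and 7 at an absolute log2 fold change of 1, and 2 and 2 when changes were tested against 0.5 (glmTreat). A filter of 5 gave 25 higher and 33 lower, and RLE scaling 33 and 32 (65 of the 90 genes). Of the 51 named genes, 12 lost their call with the filter of 5 (49 were still tested), 11 with RLE scaling, 8 with a robust prior and 5 with GC and length trends removed. Leaving out 1 library gave 3 to 529 higher and 6 to 492 lower genes, and 129 to 963 for the 3D and 2D difference (421 with all). Without iHLO library 1 or 2, 40 and 41 of the 51 genes were no longer called. Removing GC and length trends, an alternative chosen after seeing the data, left 39 higher and 69 lower genes, so that 36.1% instead of 50.0% of calls were higher, while the median of all genes was -0.03. The gene *2900026A02Rik*, 0.01 with all libraries, was -1.89 without iHEA library 1 and 0.77 without library 2, because its 2 iHEA libraries differed. The cause of the other shifts was not tested.

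A fit with the library number as a replicate block called 337 higher and 246 lower genes. The differences of library 2 minus library 1 in iHLO and iHEA had a Pearson's r of 0.04 across 13453 genes, and nothing ties the numbers to a shared culture, so the libraries share only a number. With 2 libraries a group, a gene that was not called is not shown to be unchanged.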
